A study of Mus musculus with 22 samples.

Results

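Integrins are adhesion receptors made of 1 alpha and 1 beta chain, and 10 genes that encode the chains used by lymphocytes were followed across 11 sorted populations of mouse tumour lymphocytes. The members were chosen by name: the alpha-chain genes Itgae, Itga1, Itga2, Itga4, Itgal, Itgam and Itgax and the beta-chain genes Itgb1, Itgb2 and Itgb7. Each matched 1 of the 37620 entries of the count table, and all 10 passed the filter on low counts. RNA was sequenced from cells sorted by flow cytometry out of pooled mammary tumours. The donors were C57BL/6 PyMT females, 20 to 24 weeks old, and every population has 2 libraries, 22 in all. PyMT mice carry the polyoma middle T oncogene and develop mammary tumours; the labels do not name the promoter that drives it, and all groups share this background.

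The first set holds 5 populations named by surface markers: TCRb+CD8a+NK1.1+ cells, TCRb+CD8a-NK1.1+ cells (the same without CD8a), TCR-NK1.1+ cells (NK1.1 without a T-cell receptor), TCRb+CD8a+PD1+ cells and TCRb+CD8a+PD1-NK1.1- cells. The second set holds 6 populations: ILC1l cells (type 1-like innate lymphoid cells), TCRab+ILTC1 and TCRgd+ILTC1 cells (innate-like T cells with an alpha-beta or a gamma-delta receptor), cNK cells (conventional natural killer cells), TCRb+CD8a+NK1.1- T cells and TCRgd+NK1.1- T cells. The sorting gates for ILC1l, cNK and ILTC1 cells are not stated in the labels, so whether CD49a or CD103, the products of Itga1 and Itgae, served in them was not tested. A difference in those 2 genes could be part of such a gate. Whether the 2 libraries of a population come from different pools of mice is not stated, so p-values measure only the spread between these libraries.

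Alpha chains decide most of what an integrin binds. CD103 (Itgae) pairs with the beta 7 chain and binds E-cadherin on epithelium. CD49a (Itga1) and CD49b (Itga2) pair with beta 1 and bind collagens, while CD49d (Itga4) pairs with beta 1 or beta 7 and binds VCAM1, fibronectin or MAdCAM1. CD11a (Itgal), CD11b (Itgam) and CD11c (Itgax) pair with beta 2 and bind ICAMs or complement fragments. CD103 and CD49a are known as marks of lymphocytes that stay in tissue. CD11b and CD11c are best known from macrophages, granulocytes and dendritic cells, but mouse NK cells and some T cells also carry them.

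Total counts per library ran from 8696335 to 20602715. Levels below are CPM, read counts scaled to a common library size after TMM normalization within a set, so that levels set side by side across the 2 sets were scaled apart. The T-cell receptor and NK1.1 gates could be checked on Cd3e and Klrb1c, the gene of NK1.1, in CPM of the plain library total. Klrb1c was 933 to 2428 CPM in the NK1.1+, ILC1l, cNK and ILTC1 libraries and 0.781 to 94.8 CPM in the others. Cd3e was 88.4 and 451 CPM in ILC1l libraries, 180.3 and 455 CPM in TCR-NK1.1+ libraries and 0.609 and 5.77 CPM in cNK libraries, against 560 to 1839 CPM in the libraries of T-cell gates, so the first 2 of these populations were not free of Cd3e. The TCRgd+NK1.1- libraries stood apart in a list of 20 myeloid marker genes, with 6701 and 15888 CPM in sum, against 21.8 to 891 CPM in the other 20 libraries. Epithelial marker genes summed to 7647 and 4331 CPM in TCR-NK1.1+ libraries, 5281 and 335 CPM in TCRb+CD8a-NK1.1+ libraries, 4789 and 2684 CPM in TCRgd+NK1.1- libraries and 1902 and 3789 CPM in TCRb+CD8a+NK1.1- libraries, against 21.3 to 116 CPM in the other 14 libraries. In bulk libraries like these, fewer cells with a gene's RNA and less RNA per cell cannot be told apart.

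Itgae population means spanned 425-fold between the highest and the lowest population. In the first set it was highest in TCRb+CD8a+NK1.1+ cells at 1416 and 1277 CPM, followed by 939.6 and 547 CPM in TCRb+CD8a-NK1.1+, 498 and 724 CPM in TCR-NK1.1+, 389 and 508 CPM in TCRb+CD8a+PD1-NK1.1- and 181 and 261 CPM in TCRb+CD8a+PD1+ cells. The top and the bottom population stood clear of their neighbours, while the 3 in between overlapped along the order. In the second set it reached 1718 and 3165 CPM in TCRab+ILTC1, 1449.5 and 2057 CPM in TCRgd+ILTC1 and 1318 and 1721 CPM in ILC1l cells, then 452 and 863 CPM in TCRgd+NK1.1- and 283 and 587 CPM in TCRb+CD8a+NK1.1- cells, and 2.26 and 9.24 CPM in cNK cells. The 3 innate-like populations overlapped one another and lay above the NK1.1- T cells, and cNK cells lay far below both, on counts of 29 and 104 reads.

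Itgb7, the only beta chain known to pair with CD103, varied far less. Its population means ran from 84.9 CPM in TCRb+CD8a+PD1+ cells to 399 CPM in TCRgd+NK1.1- cells. The cNK libraries, almost without Itgae, held 279.9 and 239.8 CPM of Itgb7, and 4 of the 5 neighbouring pairs in the second set's order overlapped. In the first set TCRb+CD8a+PD1-NK1.1- cells were highest at 281 and 441 CPM and TCRb+CD8a+PD1+ cells lowest at 70.6 and 99.2 CPM, each apart from the next population.

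The collagen receptor genes Itga1 and Itga2 were high in different populations. Itga1 was 237 and 316 CPM in TCRb+CD8a+NK1.1+, 165 and 271 CPM in TCRb+CD8a-NK1.1+, 94.3 and 192 CPM in TCR-NK1.1+, 51.6 and 101 CPM in TCRb+CD8a+PD1-NK1.1- and 36 and 51.6 CPM in TCRb+CD8a+PD1+ cells. In the second set it was 448 and 368 CPM in TCRgd+ILTC1, 364 and 399 CPM in TCRab+ILTC1, 353 and 263 CPM in ILC1l, 92.9 and 81.4 CPM in TCRb+CD8a+NK1.1-, 67.2 and 99 CPM in TCRgd+NK1.1- and 3.89 and 7.82 CPM in cNK cells. As for Itgae, the 3 innate-like populations were on top, with ILC1l cells apart from TCRab+ILTC1 cells, and cNK cells were at the bottom. Itga2 was 227 and 259 CPM in cNK cells and at most 23.8 CPM in any other library. Platelets also carry CD49b, and in the 2 cNK libraries the platelet genes Pf4 and Gp9 were at 0 and 1.95 CPM and 0 and 0 CPM; of the platelet and mast list's 394 and 518 CPM there, the chymase gene Cma1 made up 393 and 514 CPM.

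Itga4 was highest where Itga1 was lowest, in cNK cells of the second set and TCRb+CD8a+PD1+ cells of the first. It was 1312 and 1232 CPM in cNK cells and 672 and 342 CPM in TCRb+CD8a+NK1.1- cells, and 81.3 to 198 CPM in the other 8 libraries of the second set. In the first set it was 502 and 537 CPM in TCRb+CD8a+PD1+ cells, 275 and 223 CPM in TCRb+CD8a+PD1-NK1.1- cells, 93.9 and 231 CPM in TCRb+CD8a-NK1.1+ cells, 70.4 and 114 CPM in TCRb+CD8a+NK1.1+ cells and 43.4 and 87.2 CPM in TCR-NK1.1+ cells. Only TCRb+CD8a+PD1+ cells stood apart from the next population there. Exons of Cerkl, on the opposite strand, share 1124 bases with those of Itga4, and the labels do not say if the counting kept strands apart. Cerkl was at 86.6 and 114 CPM in cNK cells and 9.05 to 55.1 CPM elsewhere, so reads of the 2 genes cannot be told apart with certainty.

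Of the 4 genes of the beta 2 family, Itgb2 and Itgal were high in every library. Itgb2 was 2374 and 2724 CPM in cNK cells and 419 to 1093 CPM in the other 20 libraries, and Itgal was 1629.9 and 2039 CPM in cNK cells and 213 to 842 CPM in the others. Below cNK cells, neighbours in the second set's order overlapped in both genes, while 3 of the 4 neighbouring pairs of the first set were apart for Itgb2. Itgam spanned the widest range of all 10 genes, with 959 and 889 CPM in cNK cells, 54 and 125 CPM in TCRgd+NK1.1- cells, 58.4 and 66.7 CPM in ILC1l cells and 29.1 and 57.8 CPM in TCR-NK1.1+ cells, against 0.32 and 0.623 CPM in TCRb+CD8a+PD1+ cells on 5 and 7 reads. Itgax was spread more evenly over the populations with NK1.1 RNA: 537 and 465 CPM in ILC1l, 350.3 and 354 CPM in cNK, 284 and 322 CPM in TCRgd+ILTC1 and 220.3 and 251 CPM in TCRab+ILTC1 cells, then 72.3 and 171 CPM in TCRgd+NK1.1- and 20.3 and 32.3 CPM in TCRb+CD8a+NK1.1- cells. Every neighbour in that order was apart from the next. In the first set Itgax was 171 and 251 CPM in TCR-NK1.1+, 126 and 205 CPM in TCRb+CD8a-NK1.1+, 99 and 147 CPM in TCRb+CD8a+NK1.1+, 12.4 and 26.8 CPM in TCRb+CD8a+PD1-NK1.1- and 5.19 and 4.18 CPM in TCRb+CD8a+PD1+ cells.

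Itgb1, the partner of CD49a, CD49b and CD49d, was the member that varied least. It was 765 and 531 CPM in cNK cells and 112 to 581.6 CPM in the other 20 libraries, and in each set 4 neighbouring pairs in its order overlapped. Replicate 2 was higher than replicate 1 in all 5 populations of the first set and in 0 of the 6 of the second. A test of any difference among the 5 populations of the first set called 6 of the 10 genes, against 6.1% of all genes tested, and left out Itgal, Itgb1, Itgb2 and Itgb7. Among the 6 populations of the second set it called 8, against 4.76% of all genes, and left out Itgb1 (adjusted p = 0.175) and Itgb7 (adjusted p = 0.0619). These and all later tests are edgeR quasi-likelihood tests with Benjamini-Hochberg adjustment over all genes of a set, and a gene is called at an adjusted p under 0.05. A value with ± after a pair of levels is the log2 fold change with its standard error.

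**Figure D1:**
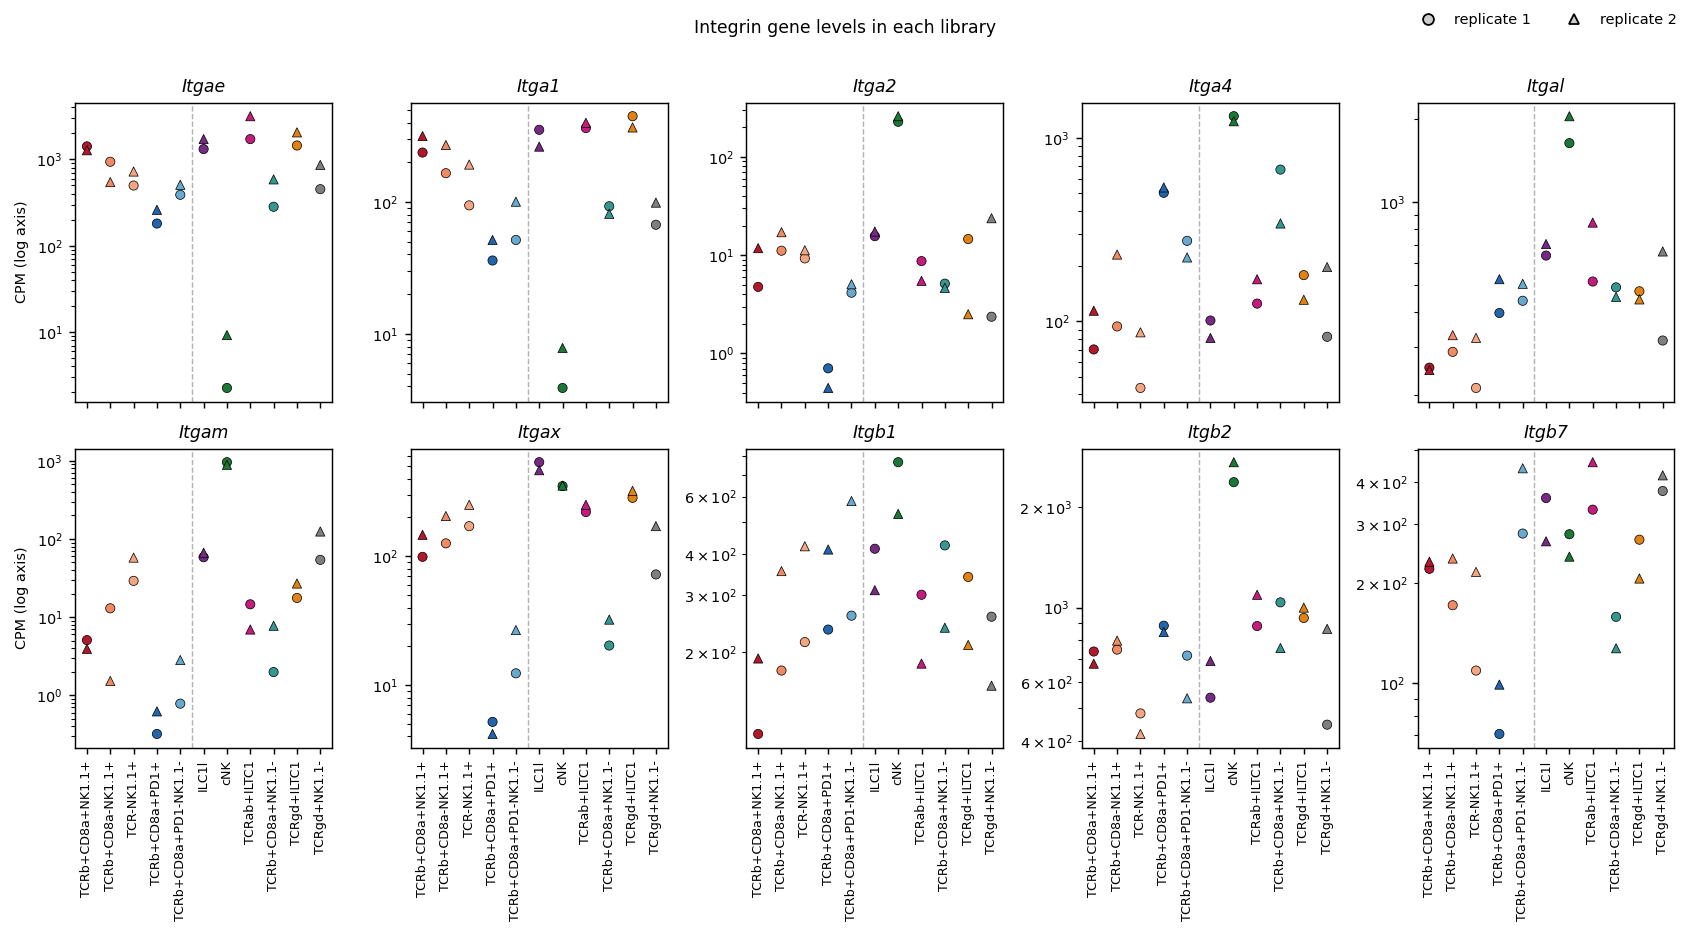
Level of each of the 10 integrin genes in CPM (log axis) in every library, circles for replicate 1 and triangles for replicate 2; a dashed line parts the 5 populations of the first set from the 6 of the second. Itgae, Itga1 and Itgax are high in the innate-like populations, and Itgax is high in cNK cells too. Itga2, Itga4 and Itgam are highest in cNK cells, and Itgb1 and Itgb7 vary little.

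The comparison of TCRb+CD8a+NK1.1+ with TCRb+CD8a+PD1+ cells sets CD8 T cells with NK1.1 against those with PD-1, a receptor found on repeatedly stimulated T cells. Here 5 of the 10 integrin genes were called, 4 higher and 1 lower in TCRb+CD8a+NK1.1+ cells, against 2.11% of all 15727 genes (1.09% higher and 1.02% lower). The libraries of the 2 populations did not overlap in any of the 10, as was so for 44.9% of all genes. The median log2 fold change of the 10 was 2.01, against -0.00 over all genes.

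Itgax differed most, with 99 and 147 CPM in TCRb+CD8a+NK1.1+ cells against 5.19 and 4.18 CPM in TCRb+CD8a+PD1+ cells. Both NK1.1+ libraries were far above both PD1+ libraries, the log2 fold change was 4.70 ± 0.49, adjusted p = 0.00127, and the call held when any 1 of the 4 libraries was left out. Itgae had 1416 and 1277 CPM in TCRb+CD8a+NK1.1+ cells and 181 and 261 CPM in TCRb+CD8a+PD1+ cells, with no overlap (log2 fold change 2.61 ± 0.35, adjusted p = 0.00489), and its call held without any 1 library too. Itga1 had 237 and 316 CPM in TCRb+CD8a+NK1.1+ cells against 36 and 51.6 CPM in TCRb+CD8a+PD1+ cells (2.66 ± 0.47, adjusted p = 0.0167), but the adjusted p was 0.055 to 0.145 in each of the 4 fits without 1 library. The 2 libraries of each population were again apart. Itga2 was low in both, with 4.75 and 11.8 CPM in TCRb+CD8a+NK1.1+ cells against 0.705 and 0.445 CPM in TCRb+CD8a+PD1+ cells, the second on 11 and 5 reads (3.81 ± 0.71, adjusted p = 0.0215). It was no longer called without either TCRb+CD8a+PD1+ library (adjusted p up to 0.22) or without TCRb+CD8a+NK1.1+ replicate 2.

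Itga4 was the one member that fell, with 70.4 and 114 CPM in TCRb+CD8a+NK1.1+ cells against 502 and 537 CPM in TCRb+CD8a+PD1+ cells (-2.49 ± 0.48, adjusted p = 0.0267). Both PD1+ libraries lay far above both NK1.1+ libraries, yet the adjusted p was 0.0774 to 0.283 in the fits without 1 library. The other 5 were not called. Itgb7 was 220.5 and 232 CPM in TCRb+CD8a+NK1.1+ cells and 70.6 and 99.2 CPM in TCRb+CD8a+PD1+ cells (1.41 ± 0.38, adjusted p = 0.121). Itgam gave 3.26 ± 1.05, adjusted p = 0.221, Itgal -0.89 ± 0.28, adjusted p = 0.206, Itgb1 -1.09 ± 0.53, adjusted p = 0.514 and Itgb2 -0.28 ± 0.24, adjusted p = 0.801, and no beta chain passed the test. The myeloid list summed to 21.8 and 23.9 CPM in TCRb+CD8a+NK1.1+ cells, with 7 of its 20 genes at 0 counts in each library, and to 62.5 and 132 CPM in TCRb+CD8a+PD1+ cells, with 3 and 2 at 0. The part of myeloid RNA in the Itgax levels was not tested.

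Set against TCRb+CD8a+PD1-NK1.1- cells, TCRb+CD8a+NK1.1+ cells differed in 1 of the 10, against 1.78% of all genes. Itgax had 99 and 147 CPM in TCRb+CD8a+NK1.1+ cells and 12.4 and 26.8 CPM in TCRb+CD8a+PD1-NK1.1- cells, with no overlap (2.65 ± 0.44, adjusted p = 0.0187). The call was lost without TCRb+CD8a+NK1.1+ replicate 1 or 2 or TCRb+CD8a+PD1-NK1.1- replicate 1, with an adjusted p of up to 0.155. Itgae, at 1416 and 1277 CPM in TCRb+CD8a+NK1.1+ and 389 and 508 CPM in TCRb+CD8a+PD1-NK1.1- cells, came close (1.59 ± 0.34, adjusted p = 0.0505), and Itga1 gave 1.86 ± 0.46, adjusted p = 0.0921. Both sets of libraries were apart in these 2 genes as well. In the fit that left out the 3 libraries of the first set highest in epithelial markers, an alternative chosen after seeing the data, 5 members were called, among them Itgae (adjusted p = 0.00553) and Itga1 (adjusted p = 0.0183). The share of all genes called in that fit is not given, so this count cannot be set against it.

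Between TCRb+CD8a+PD1+ and TCRb+CD8a+PD1-NK1.1- cells no member was called by edgeR, against 0.451% of all genes. An unadjusted p under 0.05 was found for 5 members and 6.77% of all genes, and DESeq2 called 3 members. For DESeq2 counts, here and below, the share of all genes is not given, so they cannot be set against it. Itgb7 came nearest, with 70.6 and 99.2 CPM in TCRb+CD8a+PD1+ cells against 281 and 441 CPM in TCRb+CD8a+PD1-NK1.1- cells (-2.09 ± 0.39, adjusted p = 0.0614). Both PD1+ libraries were lower. Without the 3 libraries highest in epithelial markers its adjusted p was 0.00849. Itga4 was 502 and 537 CPM in TCRb+CD8a+PD1+ and 275 and 223 CPM in TCRb+CD8a+PD1-NK1.1- cells, a log2 fold change of 1.06 ± 0.46, adjusted p = 0.711.

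No member was called among the 3 NK1.1+ populations of the first set. Between TCRb+CD8a+NK1.1+ and TCR-NK1.1+ cells 0 members were called by edgeR (1.54% of all genes were), with 3 at an unadjusted p under 0.05 (as were 15.4% of all genes) and 2 called by DESeq2. Itgam had the largest difference, 5.09 and 3.93 CPM in TCRb+CD8a+NK1.1+ cells against 29.1 and 57.8 CPM in TCR-NK1.1+ cells (log2 fold change -3.27 ± 0.96, adjusted p = 0.146, 95% interval -5.40 to -1.13), and the myeloid list summed to 574 and 611 CPM in the TCR-NK1.1+ libraries; its part in the difference was not tested. Between TCRb+CD8a+NK1.1+ and TCRb+CD8a-NK1.1+ cells the count was 0 by edgeR and 0 by DESeq2, with 1 at an unadjusted p under 0.05. Of all genes, 0.337% were called and 9.34% had such a p. Between TCRb+CD8a-NK1.1+ and TCR-NK1.1+ cells it was 0 by both, with 3 at an unadjusted p under 0.05, against 0% called and 8.55% with such a p among all genes. The TCRb+CD8a+NK1.1+ libraries stood apart from the TCR-NK1.1+ libraries in Itga1, at 237 and 316 CPM against 94.3 and 192 CPM in TCR-NK1.1+ cells, with a log2 fold change of 0.95 ± 0.44, adjusted p = 0.343 and a 95% interval of -0.04 to 1.94.

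**Figure D2:**
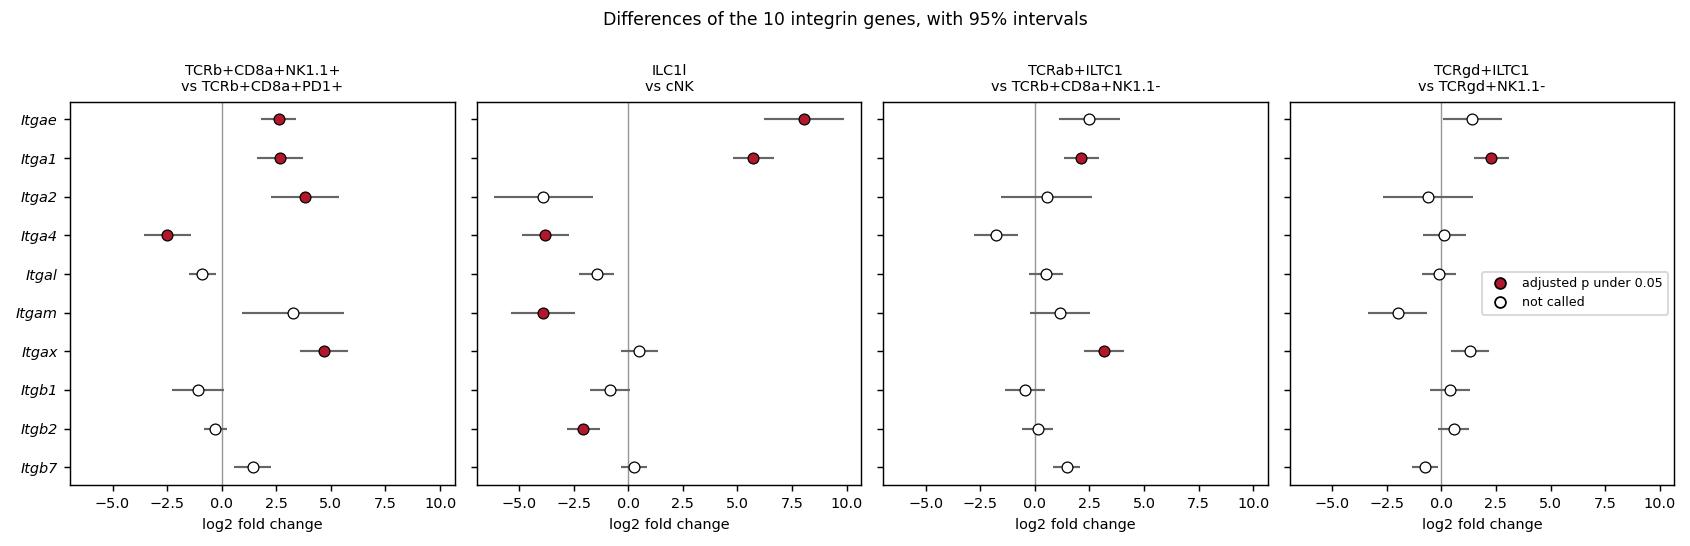
Log2 fold change of each integrin gene with its 95% interval in 4 comparisons, the NK1.1+ or innate-like population over its comparator; filled points have an adjusted p under 0.05. Itga1 lies above 0 in all 4 panels and is called in each, and the largest difference is that of Itgae in ILC1l against cNK cells, 8.05.

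The comparison of ILC1l with cNK cells asks how 2 kinds of NK1.1+ innate lymphocytes differ. It called 5 of the 10 integrin genes, 2 higher and 3 lower in ILC1l cells, against 1.02% of all 16828 genes (0.606% higher and 0.41% lower). In 9 of the 10 the libraries did not overlap, as in 53.3% of all genes. Itgae was at 1318 and 1721 CPM in ILC1l cells against 2.26 and 9.24 CPM in cNK cells, and the log2 fold change was 8.05 ± 0.82, adjusted p = 0.00193. Itga1 was at 353 and 263 CPM in ILC1l cells against 3.89 and 7.82 CPM in cNK cells (5.72 ± 0.42, adjusted p = 0.000543). Both ILC1l libraries exceeded both cNK libraries by far, and both calls held without any 1 library.

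The 3 genes that fell were Itga4, Itgam and Itgb2. Itga4 was at 101 and 81.3 CPM in ILC1l cells against 1312 and 1232 CPM in cNK cells (-3.80 ± 0.48, adjusted p = 0.00583), and lost its call without ILC1l replicate 2 (adjusted p = 0.0744). Cerkl, the overlapping gene, was 22.9 and 15.5 CPM in ILC1l and 86.6 and 114 CPM in cNK cells. Itgam was at 58.4 and 66.7 CPM in ILC1l cells against 959 and 889 CPM in cNK cells (-3.89 ± 0.66, adjusted p = 0.0244), and Itgb2 at 538 and 693 CPM in ILC1l cells against 2374 and 2724 CPM in cNK cells (-2.05 ± 0.33, adjusted p = 0.0182). All 3 were lower in both ILC1l libraries. Neither Itgam nor Itgb2 was called in any of the 4 fits without 1 library (adjusted p 0.0934 to 0.235 and 0.0823 to 0.18). The myeloid list summed to 45.6 and 53.7 CPM in ILC1l cells and 85.3 and 568 CPM in cNK cells, and a list of dendritic cell genes to 293 and 359 CPM in ILC1l cells and 515 and 2660.3 CPM in cNK cells. Itgam alone exceeded the myeloid sum in each cNK library and the dendritic cell sum in replicate 1, but not that in replicate 2. The part of such cells in these levels was not tested.

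Itga2 showed a wide gap that did not pass the test, 15.6 and 17.4 CPM in ILC1l cells against 227 and 259 CPM in cNK cells (-3.88 ± 1.01, adjusted p = 0.141). Every cNK library was above every ILC1l library. Itgal was 639.8 and 704 CPM in ILC1l and 1629.9 and 2039 CPM in cNK cells (-1.45 ± 0.36, adjusted p = 0.115), without overlap. Itgax, at 537 and 465 CPM in ILC1l and 350.3 and 354 CPM in cNK cells, gave 0.51 ± 0.38, adjusted p = 0.673, and Itgb1 and Itgb7 gave -0.84 ± 0.41, adjusted p = 0.525 and 0.27 ± 0.27, adjusted p = 0.791. Only Itgb7 had overlapping libraries. The log2 fold changes of the 3 beta-2 alpha chains thus ranged from -3.89 for Itgam to 0.51 for Itgax; the difference between them was not tested.

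The 250 bases before the start of 4 alpha-chain genes are shown because Itga1, Itga4 and Itgam differed here while Itgax, a neighbour of Itgam on chromosome 7, was not called. They are RefSeq sequences of build GRCm38.p6, written 5′ to 3′ on the gene's strand, with motif matches in capitals. RefSeq entries were found for 7 of the 10 members.
Itga1 (chr13:115101965-115102214, - strand): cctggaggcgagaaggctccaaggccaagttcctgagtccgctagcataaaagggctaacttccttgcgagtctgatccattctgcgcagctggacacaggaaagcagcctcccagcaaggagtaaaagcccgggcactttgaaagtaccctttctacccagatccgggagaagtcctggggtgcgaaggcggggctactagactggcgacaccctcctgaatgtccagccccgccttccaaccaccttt
Itga4 (chr2:79255176-79255425, + strand): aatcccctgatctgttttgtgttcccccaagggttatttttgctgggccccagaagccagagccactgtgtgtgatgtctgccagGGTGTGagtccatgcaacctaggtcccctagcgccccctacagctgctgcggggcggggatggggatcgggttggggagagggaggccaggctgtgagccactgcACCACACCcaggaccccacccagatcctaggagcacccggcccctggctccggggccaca
Itgam (chr7:128062390-128062639, + strand): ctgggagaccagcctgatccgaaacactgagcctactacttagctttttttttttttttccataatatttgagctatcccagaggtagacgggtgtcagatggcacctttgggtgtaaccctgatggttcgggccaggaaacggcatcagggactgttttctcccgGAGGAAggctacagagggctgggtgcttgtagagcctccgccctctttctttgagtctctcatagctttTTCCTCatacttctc
Itgax (chr7:128129300-128129549, + strand): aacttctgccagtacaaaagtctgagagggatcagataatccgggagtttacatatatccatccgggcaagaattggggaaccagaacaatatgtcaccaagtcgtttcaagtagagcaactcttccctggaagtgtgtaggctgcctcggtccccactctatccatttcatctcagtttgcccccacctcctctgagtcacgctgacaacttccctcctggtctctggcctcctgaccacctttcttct
The capitals mark 3 short motifs searched on both strands: the RUNX core TGTGGT, which reads ACCACA from the other strand, the T-box core GGTGTG, which reads CACACC from there, and the PU.1 core GAGGAA, which reads TTCCTC. RUNX and T-box factors act in lymphocytes, and PU.1 in myeloid cells. The Itga4 window holds a T-box match at position -165 and, on the other strand, a RUNX match at -60 that overlaps a T-box match at -58. In the Itgam window PU.1 matches begin at -84 and, on the other strand, at -15. The letters of the 3 motifs are not in the Itga1 and Itgax windows, nor in that of Itga2. The windows of Itgb1 and Itgb7, not shown, hold a PU.1 match at -9 and a T-box match at -8. Of 32851 RefSeq promoters of this length, 14% hold the RUNX letters, 16.3% the T-box letters and 23.3% the PU.1 letters, so such matches are common and a match is only a description.

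Against their NK1.1- counterparts, TCRab+ILTC1 cells differed in 2 of the 10 genes, against 0.523% of all genes. Itgax was 220.3 and 251 CPM in TCRab+ILTC1 cells and 20.3 and 32.3 CPM in TCRb+CD8a+NK1.1- cells (3.16 ± 0.41, adjusted p = 0.0204). Itga1 was 364 and 399 CPM in TCRab+ILTC1 cells and 92.9 and 81.4 CPM in TCRb+CD8a+NK1.1- cells (2.13 ± 0.35, adjusted p = 0.0422). In both genes the 2 TCRab+ILTC1 libraries were higher, and both calls were lost without TCRab+ILTC1 replicate 2 or without either TCRb+CD8a+NK1.1- library (adjusted p up to 0.0892 and 0.243). Itgae, at 1718 and 3165 CPM in TCRab+ILTC1 and 283 and 587 CPM in TCRb+CD8a+NK1.1- cells, was not called (2.49 ± 0.63, adjusted p = 0.123), although its libraries did not overlap. Itgb7 was 332 and 460.0 CPM in TCRab+ILTC1 and 158 and 127 CPM in TCRb+CD8a+NK1.1- cells (1.47 ± 0.28, adjusted p = 0.057), and Itga4 was 125 and 169.8 CPM in TCRab+ILTC1 and 672 and 342 CPM in TCRb+CD8a+NK1.1- cells (-1.78 ± 0.44, adjusted p = 0.121). Leaving out both TCRgd+NK1.1- libraries, which shared the fit, gave 4 called members, Itgb7 among them (adjusted p = 0.0445). That alternative was chosen after seeing the data. Its share of all genes called is not given, so the count cannot be set against it. The myeloid list stood at 426 and 30.8 CPM in TCRab+ILTC1 and 677 and 891 CPM in TCRb+CD8a+NK1.1- libraries. The part of myeloid RNA in these Itgax levels was not tested.

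Against TCRgd+NK1.1- cells, TCRgd+ILTC1 cells differed in Itga1 alone, against 1.59% of all genes. Itga1 was 448 and 368 CPM in TCRgd+ILTC1 cells and 67.2 and 99 CPM in TCRgd+NK1.1- cells, without overlap (2.29 ± 0.36, adjusted p = 0.0211), but lost its call without either TCRgd+ILTC1 library (adjusted p up to 0.109). Itgae gave 1.41 ± 0.61, adjusted p = 0.265 and Itgax 1.31 ± 0.38, adjusted p = 0.12. Itgam was 17.6 and 26.9 CPM in TCRgd+ILTC1 and 54 and 125 CPM in TCRgd+NK1.1- cells (-2.01 ± 0.61, adjusted p = 0.133), beside myeloid sums of 76.4 and 76.9 CPM in TCRgd+ILTC1 and 6701 and 15888 CPM in TCRgd+NK1.1- libraries. The part of myeloid RNA in the TCRgd+NK1.1- levels was not tested, and no value of this comparison can be had without those libraries.

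Averaged over the 3 differences (ILC1l over cNK, TCRab+ILTC1 over TCRb+CD8a+NK1.1- and TCRgd+ILTC1 over TCRgd+NK1.1- cells), 5 members were called, against 5.87% of all genes (1.9% higher and 3.97% lower). Itgae (3.98 ± 0.39, adjusted p = 0.000789), Itga1 (3.38 ± 0.22, adjusted p = 0.000123) and Itgax (1.66 ± 0.22, adjusted p = 0.00343) were higher in the innate-like populations. Itga4 (-1.81 ± 0.26, adjusted p = 0.00439) and Itgam (-1.58 ± 0.35, adjusted p = 0.0299) were lower on average, though not in all 3 lineages. The first 4 were called in each of the 12 fits without 1 library, while Itgam was lost without either library of ILC1l, cNK or TCRgd+ILTC1 cells and without replicate 2 of TCRab+ILTC1 or TCRb+CD8a+NK1.1- cells (adjusted p up to 0.0797). Taken over the ILC1l and TCRab+ILTC1 differences alone, without the TCRgd+NK1.1- libraries, the mean log2 fold change was 5.23, adjusted p = 0.00129 for Itgae, 3.89, adjusted p = 0.000432 for Itga1, 1.80, adjusted p = 0.00159 for Itgax, -2.83, adjusted p = 0.000973 for Itga4 and -1.40, adjusted p = 0.0795 for Itgam.

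The 3 differences were not of one size, nor all of one sign. Itga4 was 179 and 131 CPM in TCRgd+ILTC1 cells and 82.5 and 198 CPM in TCRgd+NK1.1- cells, with overlap. Itgam was 14.6 and 6.95 CPM in TCRab+ILTC1 cells and 1.98 and 7.77 CPM in TCRb+CD8a+NK1.1- cells, also with overlap. The Itgae difference of TCRab+ILTC1 over TCRb+CD8a+NK1.1- cells was smaller than that of ILC1l over cNK cells (difference of the log2 fold changes -5.56 ± 0.91, adjusted p = 0.0497), and so was that of TCRgd+ILTC1 over TCRgd+NK1.1- cells (-6.64 ± 0.93, adjusted p = 0.0158). The same held for Itga1, with -3.59 ± 0.50, adjusted p = 0.0271 for TCRab+ILTC1 and -3.43 ± 0.50, adjusted p = 0.0178 for TCRgd+ILTC1 cells. Both comparators of the T-cell lineages, TCRb+CD8a+NK1.1- and TCRgd+NK1.1- cells, had Itgae and Itga1 levels well above those of cNK cells. The Itga4 value of the TCRgd+ILTC1 difference lay above that of the ILC1l difference (3.95 ± 0.63, adjusted p = 0.0256), and so did that of Itgb2 (2.61 ± 0.46, adjusted p = 0.0341). In all, 2 members were called in the first of these contrasts, against 0.256% of all genes, and 4 in the second, against 1.02%. The Itgae and Itga1 calls of the TCRab+ILTC1 contrast were lost in 5 and 6 of the 8 fits without 1 library (adjusted p up to 0.114 and 0.112); those without ILC1l replicate 1 or 2, cNK replicate 1, TCRab+ILTC1 replicate 2 or TCRb+CD8a+NK1.1- replicate 2 lost both, and that without TCRb+CD8a+NK1.1- replicate 1 lost Itga1. In the TCRgd+ILTC1 contrast Itgae was lost without either TCRgd+ILTC1 library (0.0772). Itga1 was lost there also without ILC1l replicate 1 or cNK replicate 1 (0.107), and Itga4 and Itgb2 without any of the ILC1l, cNK or TCRgd+ILTC1 libraries (0.112 and 0.135). Between the TCRgd+ILTC1 and TCRab+ILTC1 differences 0 members were called by edgeR, against 0.0535% of all genes. There 4 members and 8.85% of all genes had an unadjusted p under 0.05, and DESeq2 called 3 members.

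Among themselves the 3 innate-like populations of the second set gave no call. For TCRab+ILTC1 against ILC1l cells edgeR called 0 of the 10 and 0% of all genes, with 2 members (6.37% of all genes) at an unadjusted p under 0.05 and 1 member called by DESeq2. For TCRgd+ILTC1 against ILC1l cells edgeR called 0 members and 0% of all genes, with 1 member (5.56% of all genes) at an unadjusted p under 0.05 and 0 called by DESeq2. For TCRgd+ILTC1 against TCRab+ILTC1 cells it called 0 members and 0% of all genes, with 1 member (3.39% of all genes) at such a p and 0 called by DESeq2. The 95% interval for Itgae was -0.65 to 2.02 in TCRab+ILTC1 over ILC1l cells and -1.12 to 1.53 in TCRgd+ILTC1 over ILC1l cells. Itgam gave the widest gap, 14.6 and 6.95 CPM in TCRab+ILTC1 cells against 58.4 and 66.7 CPM in ILC1l cells (-2.53 ± 0.63, adjusted p = 0.586).

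**Figure D3:**
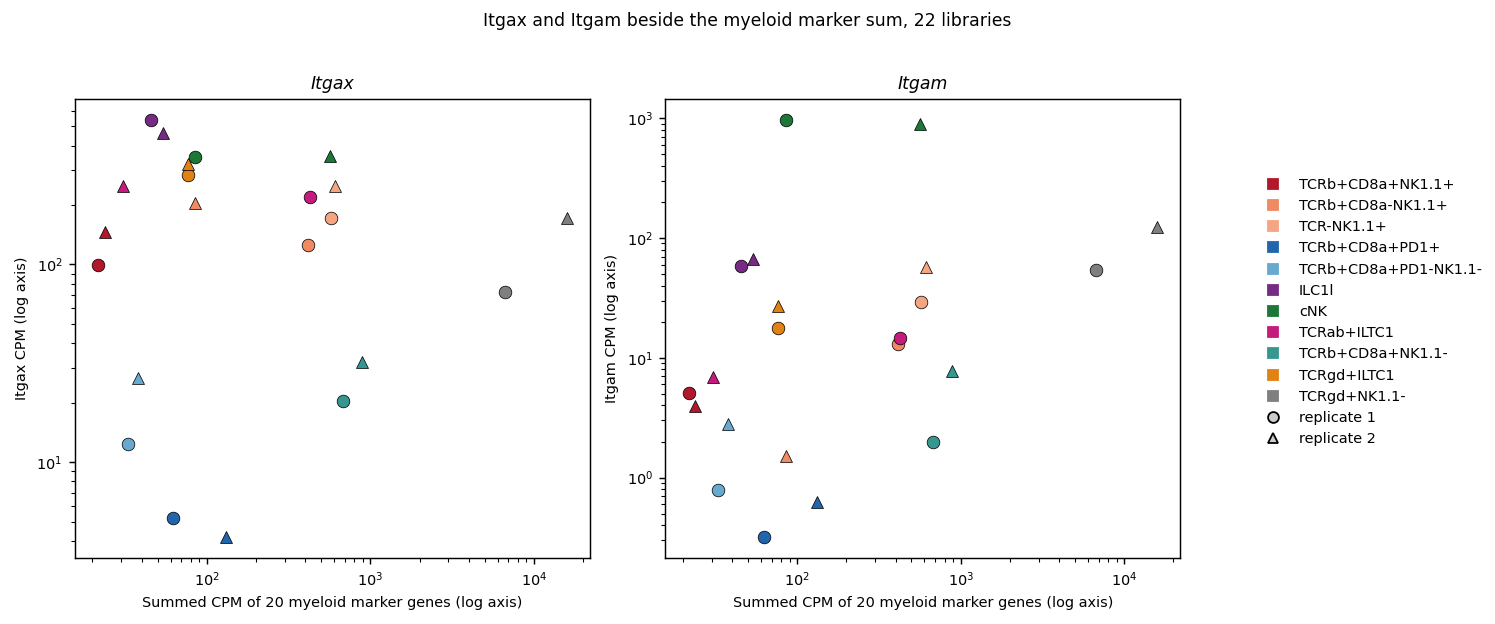
Itgax and Itgam in CPM against the summed CPM of 20 myeloid marker genes in each of the 22 libraries (both axes logarithmic). The cNK libraries hold most Itgam and the 2 TCRgd+NK1.1- libraries most myeloid RNA, while among libraries with under 100 CPM of myeloid markers Itgax runs from 5.19 CPM in a TCRb+CD8a+PD1+ library to 537 CPM in an ILC1l library.

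Because Itgam and Itgax are also macrophage and dendritic cell genes, their levels were set beside markers of those cells. The TCRgd+NK1.1- libraries had the most Csf1r, the receptor of a macrophage growth factor, at 283 and 1433 CPM, and the most Lyz2 at 2112 and 4523 CPM. Their Itgam, 54 and 125 CPM, and Itgax, 72.3 and 171 CPM, rank below those of cNK cells, whose Csf1r was 6.92 and 53 CPM. The dendritic cell list, which includes class II antigen presentation genes, summed to 293 and 359 CPM in the ILC1l libraries, which held the most Itgax of all 22, with Xcr1 at 6.07 and 10.2 CPM and Clec9a at 0 and 0 CPM. The same list summed to 66.5 and 77.8 CPM in TCRb+CD8a+NK1.1+ cells and 198 and 419 CPM in TCRb+CD8a+PD1+ cells, 1769.5 and 141 CPM in TCRab+ILTC1 cells and 1982 and 1787 CPM in TCRb+CD8a+NK1.1- cells, and 227 and 195 CPM in TCRgd+ILTC1 cells and 12872 and 32765 CPM in TCRgd+NK1.1- cells. In TCRb+CD8a+NK1.1+ cells, with Itgax at 99 and 147 CPM, Adgre1, the F4/80 gene, was 0 and 0.167 CPM and Cd14 0.75 and 0.0836 CPM. Other genes of the myeloid list were higher there, with Csf1r at 3.75 and 4.26 CPM and Cd68 at 7.004 and 7.53 CPM. Of the dendritic cell list, Xcr1 was 7.17 and 9.87 CPM and Zbtb46 4.34 and 5.35 CPM in these libraries. In each ILC1l and TCRb+CD8a+NK1.1+ library Itgax exceeded the sums of both lists, 537 and 465 CPM in ILC1l cells and 99 and 147 CPM in TCRb+CD8a+NK1.1+ cells; the part of myeloid or dendritic cells in it was not tested.

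To set the chains of one library against each other, CPM were divided by the exon length of each gene. Itgae made up 79.8 and 74.4% of the summed alpha-chain CPM per kb in the TCRb+CD8a+NK1.1+ libraries, 70.5 and 76.2% in the TCRab+ILTC1, 64.5 and 72.6% in the TCRgd+ILTC1 and 53.6 and 61% in the ILC1l libraries. By population mean it was the leading alpha chain in 9 of the 11 populations. Its share was 54.1 and 50.6% in TCRgd+NK1.1- and 47.8 and 51.3% in TCRb+CD8a+PD1-NK1.1- libraries, near that of ILC1l replicate 1. In TCRb+CD8a+NK1.1- replicate 1 it had 31.7%, below the 38.4% of Itgal. In replicate 2 of that population it had 54.6%, above the 29.4% of Itgal and near its share in ILC1l replicate 1. In cNK cells, where its share was 0.0772 and 0.293%, Itgal led with 38.9 and 45.1%, and Itgam had 29.9 and 25.7% and Itga4 14.7 and 12.8%. In TCRb+CD8a+PD1+ cells Itgal led too, with 43.5 and 44.7%, against 28.4 and 31.8% for Itgae. The leading chain was the same with the longest transcript as length, which shortens Itga1 from 18599 to 10967 bases.

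**Figure D4:**
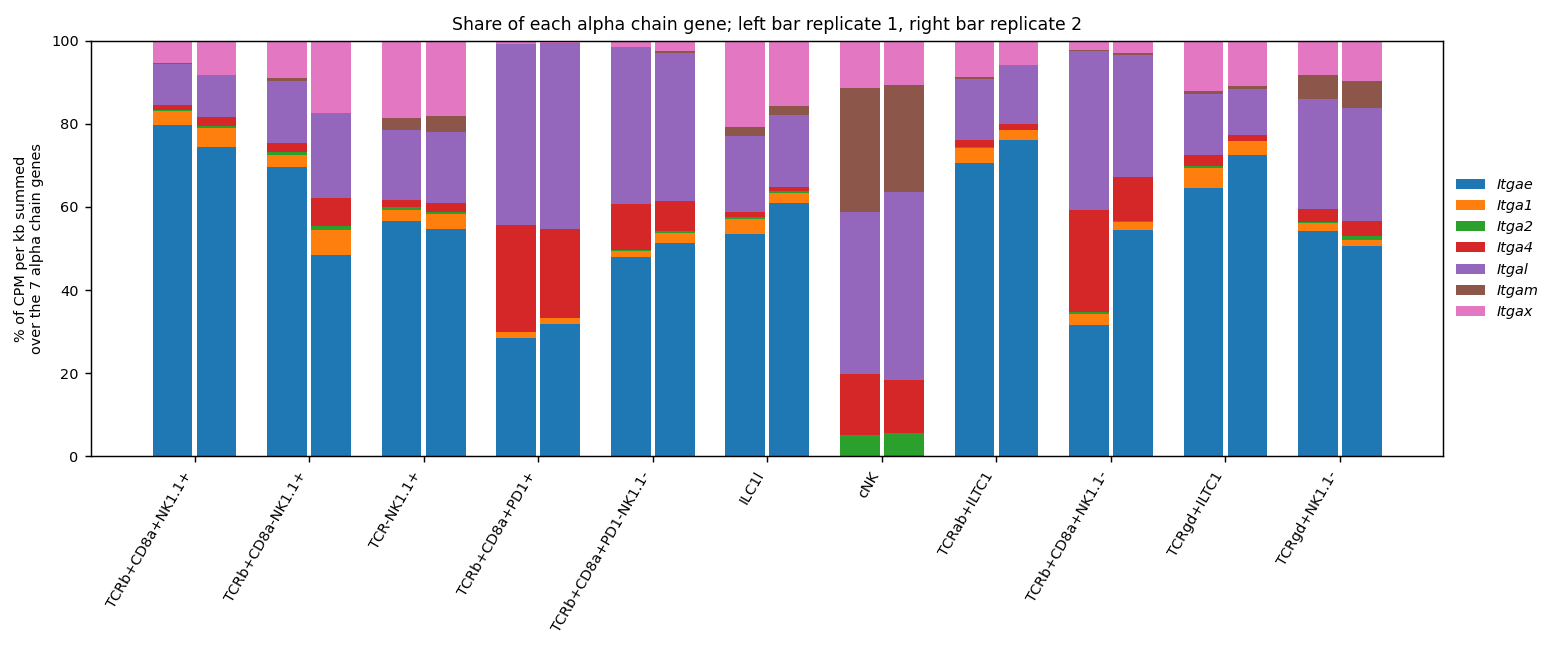
Share of each alpha chain in the summed alpha-chain CPM per kb of a library, in percent; the left bar of a pair is replicate 1 and the right bar replicate 2. Itgae takes most of the bar in the innate-like populations and also in TCRgd+NK1.1- cells and in replicate 2 of TCRb+CD8a+NK1.1- and TCRb+CD8a+PD1-NK1.1- cells. It is almost missing in cNK cells, where Itgal, Itgam and Itga4 fill most of the bar.

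The ratio of an alpha chain to its beta chain differed between populations. Per kb, Itgae was 3.25 and 6.03 times Itgb7 in the 2 TCRgd+ILTC1 libraries, 3.13 and 4.16 times in the TCRab+ILTC1, 3.88 and 3.33 times in the TCRb+CD8a+NK1.1+ and 2.22 and 3.9 times in the ILC1l libraries. The ratio was 3.31 and 1.4 in TCRb+CD8a-NK1.1+ and 2.76 and 2.03 in TCR-NK1.1+ cells. It was 1.08 and 2.79 in TCRb+CD8a+NK1.1- cells, which overlaps ILC1l cells, and 1.55 and 1.59 in TCRb+CD8a+PD1+ cells. The lowest ratios were 0.837 and 0.697 in TCRb+CD8a+PD1-NK1.1- and 0.725 and 1.24 in TCRgd+NK1.1- cells, and 0.00488 and 0.0233 in cNK cells. Over the 11 population means, on the log2 scale, Pearson's r between Itgae and Itgb7 was 0.20 and Spearman's rho 0.42. These and the following correlations are descriptions over 11 points that share library preparation and, in pairs, a scale; no test was made.

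Itgal and Itgb2 had r 0.81 and Spearman's rho 0.36 over all 11 means, which include the far cNK point, and r 0.40 over the 5 means of the first set. Per kb, Itgb2 was 202 CPM and Itgal 102 CPM in ILC1l cells, against 835 CPM and 279 CPM in cNK cells. The ratio of Itgal to Itgb2 was 0.552 and 0.472 in the ILC1l and 0.319 and 0.348 in the cNK libraries. For Itgam and Itgb2 r was 0.45 and Spearman's rho 0.04, and for Itgax and Itgb2 0.15 and Spearman's rho 0.16. Itgax to Itgb2 ratios were 0.634 and 0.427 in ILC1l libraries, above the 0.0937 and 0.0825 of cNK libraries. Itgb2 per kb exceeded Itgal, Itgam and Itgax in every population.

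For the beta 1 partners the signs split. Itga1 and Itgb1 had r -0.69 and Spearman's rho -0.50, Itga4 and Itgb1 0.65 and Spearman's rho 0.50, and Itga2 and Itgb1 0.46 and Spearman's rho 0.06. In TCRb+CD8a+NK1.1+ cells Itga1 was 14.9 and Itgb1 37.2 CPM per kb, and in cNK cells Itga1 was 0.315 and Itgb1 159 CPM per kb. Itga4 had r -0.29 and Spearman's rho -0.25 with Itgb7, its other partner. Itgb1 per kb was above Itga1, Itga2 and Itga4 in all 11 populations.

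**Figure D5:**
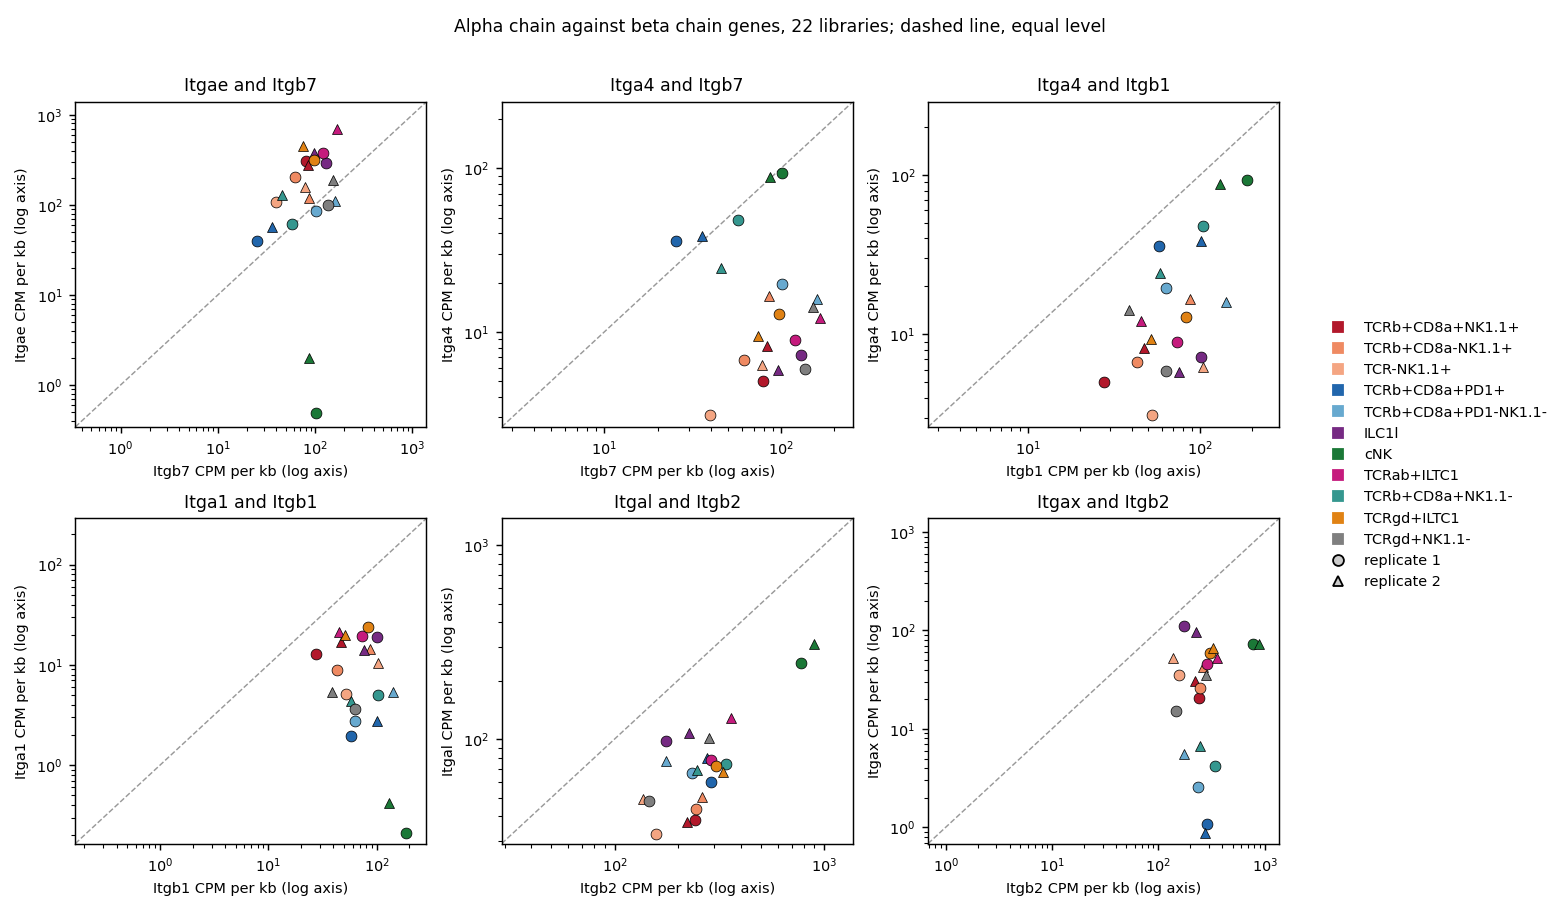
Alpha chain against its beta chain in CPM per kb on log axes in each of the 22 libraries, for 6 pairs; circles are replicate 1, triangles replicate 2, and the dashed line marks equal levels. Most Itgae points lie above the line and both cNK points far below it, Itga4 reaches the level of Itgb7 in the PD1+ and cNK libraries, and in the other 4 panels all points lie below the line.

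Beyond the 10 members, lists of other integrin genes were read in the same fits. Of 14 other subunits tested in the second set, 0 were called by edgeR in ILC1l against cNK cells, with 1 at an unadjusted p under 0.05 (as were 10.4% of all genes) and 1 called by DESeq2. Over the mean of 3 differences 2 fell, against 3.97% of all genes. They were Itga6, the laminin receptor chain (-1.57 ± 0.30, adjusted p = 0.0161), and Itgb5, a partner of the alpha V chain (-6.07 ± 1.33, adjusted p = 0.0323). Both were highest in TCRgd+NK1.1- cells, Itga6 at 65.5 and 114 CPM and Itgb5 at 39.8 and 91.8 CPM, beside those libraries' myeloid and epithelial markers. Their part in the fall was not tested.

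Among 20 genes of integrin activation, 0 rose and 1 fell in ILC1l against cNK cells, against 0.606% and 0.41% of all genes. The list median was -0.32 against 0.03 over all genes. Rasa3, which restrains the small GTPase RAP1, fell to 71.1 and 63.7 CPM in ILC1l cells, against 503 and 513 CPM in cNK cells (-2.91 ± 0.33, adjusted p = 0.00375). Both ILC1l libraries were lower. It was also lower in TCRb+CD8a+NK1.1+ than in TCRb+CD8a+PD1-NK1.1- cells, at 33.9 and 36.6 CPM in TCRb+CD8a+NK1.1+ cells against 185 and 142 CPM in TCRb+CD8a+PD1-NK1.1- cells (-2.21 ± 0.28, adjusted p = 0.00492), as was Rasgrp2, which activates RAP1, at 8.17 and 7.27 CPM in TCRb+CD8a+NK1.1+ cells against 59.5 and 41.7 CPM in TCRb+CD8a+PD1-NK1.1- cells (-2.71 ± 0.58, adjusted p = 0.0487). Against TCRb+CD8a+PD1+ cells, 1 rose and 0 fell, against 1.09% and 1.02% of all genes. The gene that rose was Skap2, an adaptor of the same pathway. It was 51.8 and 45.5 CPM in TCRb+CD8a+NK1.1+ cells and 13.1 and 10.5 CPM in TCRb+CD8a+PD1+ cells (2.04 ± 0.39, adjusted p = 0.0255). Its relative Skap1 rose in TCRgd+ILTC1 cells, 503 and 688 CPM against 232 and 269.9 CPM in TCRgd+NK1.1- cells (1.25 ± 0.23, adjusted p = 0.0327). Tln1 and Fermt3, whose products talin and kindlin 3 switch integrins on, were not called in these comparisons; Tln1 was 681 and 915 CPM in ILC1l and 696 and 1263 CPM in cNK cells.

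Of 19 tested genes that signal behind bound integrins, 1 rose and 0 fell in TCRb+CD8a+NK1.1+ against TCRb+CD8a+PD1+ cells, against 1.09% and 1.02% of all genes. That gene was Lyn, a Src-family kinase, with 69.3 and 93.5 CPM in TCRb+CD8a+NK1.1+ cells against 10.8 and 3.29 CPM in TCRb+CD8a+PD1+ cells (3.52 ± 0.60, adjusted p = 0.0133), without overlap. Against TCRb+CD8a+PD1-NK1.1- cells, at 6.02 and 12.4 CPM, it was higher as well (3.14 ± 0.59, adjusted p = 0.0302). In ILC1l against cNK cells 0 of 20 were called by edgeR, with 4 at an unadjusted p under 0.05, against 10.4% of all genes, and 1 called by DESeq2. Over the mean of 3 differences 1 of the 20 rose and 1 fell, against 1.9% and 3.97% of all genes. Zap70 rose (0.77 ± 0.14, adjusted p = 0.0148) and Vcl, the vinculin gene, fell (-4.56 ± 0.63, adjusted p = 0.00387). Vcl was 6.62 and 2.58 CPM in ILC1l cells and 52 and 53.9 CPM in cNK cells. It was called in none of the 3 differences alone. The comparators TCRb+CD8a+NK1.1- and TCRgd+NK1.1- cells are rich in epithelial or myeloid markers, whose part in the fall was not tested.

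Among 18 ligand genes tested in the second set, Cdh1, the gene of E-cadherin, was called in the ILC1l and TCRgd+ILTC1 comparisons. It was 637 and 695 CPM in ILC1l cells against 17.1 and 13.3 CPM in cNK cells (5.45 ± 0.31, adjusted p = 0.000165), and 1235 and 800.5 CPM in TCRgd+ILTC1 against 311 and 264 CPM in TCRgd+NK1.1- cells (1.82 ± 0.26, adjusted p = 0.0157). The libraries were apart in both comparisons. Krt8, an epithelial keratin gene, was 1.89 and 2.75 CPM in ILC1l and 7.39 and 8.35 CPM in cNK libraries. It was 3.76 and 0.0783 CPM in TCRgd+ILTC1 and 370.2 and 292 CPM in TCRgd+NK1.1- libraries. Epcam, another epithelial gene, was 10.6 and 10.7 CPM in ILC1l and 0.389 and 2.84 CPM in cNK libraries. It was 18.7 and 24.3 CPM in TCRgd+ILTC1 and 105 and 57.5 CPM in TCRgd+NK1.1- libraries. The part of epithelial RNA in the Cdh1 levels was not tested. Cdh1 was 883 and 768 CPM in TCRab+ILTC1 and 637 and 665 CPM in TCRb+CD8a+NK1.1- cells and was not called there. Its difference between ILC1l and cNK cells was larger than those of TCRab+ILTC1 cells (-5.11 ± 0.38, adjusted p = 0.00228 for the difference of differences) and TCRgd+ILTC1 cells (-3.63 ± 0.37, adjusted p = 0.00429). The ligand genes Vcam1 and Fn1 were called as lower in TCRgd+ILTC1 cells. Vcam1 was 1.13 and 0 CPM in TCRgd+ILTC1 and 87.6 and 809.5 CPM in TCRgd+NK1.1- cells, and Fn1 was 0 and 0 CPM in TCRgd+ILTC1 and 333 and 206 CPM in TCRgd+NK1.1- cells; these populations differ in myeloid and epithelial markers in the same direction, whose part was not tested. Icam2, a ligand of CD11a, was 18.7 and 12.6 CPM in TCRb+CD8a+NK1.1+ and 13.8 and 8.37 CPM in TCRb+CD8a+PD1+ cells, against 55.4 and 59.4 CPM in TCRb+CD8a+PD1-NK1.1- cells (-1.87 ± 0.40, adjusted p = 0.0494 and -2.37 ± 0.41, adjusted p = 0.0409).

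The genes whose levels over the 11 population means were most like those of a member were found by Pearson's r of log2 CPM among 8585 genes. For Itgae they were Apol9a (0.968), Qpct (0.967) and the member Itga1 (0.967), and for Itga1 they were Jaml (0.97), which encodes a junctional adhesion molecule, Itgae and Tcf19 (0.963). Itgax was followed most closely by Sulf2 (0.98), Plcg2 (0.977) and Gadd45g (0.972). Itga4 had Cerkl (0.968), the gene that overlaps it, then Braf (0.96) and Mkln1 (0.956). Itgam and Itga2 shared Prkab1 among their 3 (0.958 and 0.933), with Syk (0.937) and Rps6ka5 (0.935) for Itgam and Klf12 (0.937) and Ywhaq (0.933) for Itga2. For Itgal they were Flna (0.935), Cyfip2 (0.934) and Nup210 (0.93), and for Itgb2 Arhgef3 (0.933), Pfkp (0.911) and Cast (0.909). The likeness was lowest for Itgb1, with Fam20b (0.911), Hs3st3b1 (0.902) and Cd47 (0.882), and for Itgb7, with Gtf2h4 (0.868), Abcg3 (0.858) and Fbxo46 (0.852). With 11 points that include the extreme cNK cells, such values are a description and carry no test.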

How the data were processed

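Per the labels' protocols, pooled tumours were digested with collagenase and DNase, cells were enriched on Percoll and sorted into Tri-Reagent, and cDNA was amplified with a SMARTer RACE kit. BWA 0.7.5a, Picard and HTSeq are the tools and mm9 and NCBIM37 the builds listed, per the submitters' processing notes, with no counting settings. The authors deposited raw counts by gene for 22 libraries. The labels mention no molecular identifiers, so amplified copies may count more than once. The 2 spellings ILC1I and ILC1l in the sample titles were taken as 1 population. Of 37620 entries, 32897 (99.02% of counts) were given symbols from a GRCm38 annotation, used for names and exon lengths alone. Replicates differed by more than sampling noise in every population.

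The 2 sets were fitted apart with edgeR 4.0.16 (TMM, filterByExpr, quasi-likelihood F test, 1 mean per population) in R 4.3.3, over 15727 and 16828 genes. Log2 fold changes are given ± SE and 95% intervals are those of the fit. DESeq2 1.42.0, other scalings, no filter, a replicate block, other sample sets and fits without 1 library were alternatives; the fits without marker-rich libraries were added after seeing the data. Python 3.11.15, pandas 2.3.3 and matplotlib 3.10.9 served for tables and plots, and the test was tested on simulated data. For TCRb+CD8a+NK1.1+ against TCRb+CD8a+PD1+ cells it recovered 0, 46, 94 and 100% of log2 changes of 1, 2, 3 and 4. For ILC1l against cNK cells it recovered 2, 22, 56 and 80% of them. False calls were 6 of 126 and 0 of 80. Small changes were thus mostly missed. A rule set which genes are named: the 10 members everywhere, up to 3 called genes each way of every other list with at least 20 CPM and no overlap, and the 3 genes most like each member. Not every gene so picked is reported here. The members, lists and comparisons were chosen with earlier results of these data known.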

Additional observations from a re-analysis of the deposited data

Results flagged for a closer look

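For 6 results, the difference between an innate-like population and its comparator itself differed between lineages, by a contrast of the 2 log2 fold changes in the same edgeR fit. Itgae differed by 2.49 ± 0.63, adjusted p = 0.123 in TCRab+ILTC1 over TCRb+CD8a+NK1.1- cells and by 8.05 ± 0.82, adjusted p = 0.00193 in ILC1l over cNK cells, and the difference of the 2 was -5.56 ± 0.91, adjusted p = 0.0497. For Itga1 the values were 2.13 ± 0.35, adjusted p = 0.0422 in TCRab+ILTC1 over TCRb+CD8a+NK1.1- cells and 5.72 ± 0.42, adjusted p = 0.000543 in ILC1l over cNK cells, with a difference of -3.59 ± 0.50, adjusted p = 0.0271. In TCRgd+ILTC1 over TCRgd+NK1.1- cells, set against the same ILC1l difference, the contrast was -6.64 ± 0.93, adjusted p = 0.0158 for Itgae, -3.43 ± 0.50, adjusted p = 0.0178 for Itga1, 3.95 ± 0.63, adjusted p = 0.0256 for Itga4 and 2.61 ± 0.46, adjusted p = 0.0341 for Itgb2. Itga4 itself was 0.14 ± 0.43, adjusted p = 0.929 and Itgb2 0.56 ± 0.32, adjusted p = 0.399 in TCRgd+ILTC1 over TCRgd+NK1.1- cells, against -3.80 ± 0.48, adjusted p = 0.00583 and -2.05 ± 0.33, adjusted p = 0.0182 in ILC1l over cNK cells. All 4 of these genes are at an extreme in cNK cells, the comparator of 1 side of each contrast. The TCRgd+NK1.1- libraries hold the most myeloid marker RNA, whose part in the contrasts with TCRgd+ILTC1 cells was not tested. The contrasts of the TCRab+ILTC1 and TCRgd+ILTC1 cells share the ILC1l and cNK libraries, and so are not independent.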

How the results depend on the processing

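Single-gene values were followed under the alternatives only where the main fit gave an adjusted p under 0.1. Of these, 315 kept direction and side of the threshold, 28 passed it newly, 75 no longer did and 0 reversed. Weaker values were left out beforehand, so the tally cannot show how often those reversed. The number of called members moved by over 1.5 times in the following cases. With DESeq2 it was 8 for TCRb+CD8a+NK1.1+ against TCRb+CD8a+PD1+, 5 for TCRb+CD8a+NK1.1+ against TCRb+CD8a+PD1-NK1.1-, 3 for TCRb+CD8a+PD1+ against TCRb+CD8a+PD1-NK1.1-, 2 for TCRb+CD8a+NK1.1+ against TCR-NK1.1+, 5 for TCRab+ILTC1 against TCRb+CD8a+NK1.1-, 4 for TCRgd+ILTC1 against TCRgd+NK1.1-, 1 for TCRab+ILTC1 against ILC1l cells, 8 for the contrast of the TCRab+ILTC1 with the ILC1l difference and 3 for that of the TCRgd+ILTC1 with the TCRab+ILTC1 difference. With no filter on low counts the same comparisons gave 8, 5, 3, 3, 5, 4, 1, 8 and 4, TCRb+CD8a-NK1.1+ against TCR-NK1.1+ gave 2 and TCRgd+ILTC1 against ILC1l gave 1. In a fit with a replicate block, TCRb+CD8a+NK1.1+ against TCRb+CD8a+PD1-NK1.1- gave 4, TCRb+CD8a+PD1+ against TCRb+CD8a+PD1-NK1.1- 2 and TCRb+CD8a+NK1.1+ against TCR-NK1.1+ 1. The first of these includes Itgae (adjusted p = 0.0402) and Itga1 (adjusted p = 0.00439), and the second Itgb7 (adjusted p = 0.00946). The labels give no shared source for a replicate number, and the correlation of same-numbered deviations between populations was not over 0.1 in every pair: it was in 8 of 10 pairs of the first set, all 10 positive (median 0.157, 0.0545 to 0.227), and in 1 of 15 of the second (median 0.0587, -0.0406 to 0.123). Libraries with 1 number thus deviate together to some degree in the first set, and the pairing stays a hint from the data. With all 11 populations in 1 fit, TCRb+CD8a+PD1+ against TCRb+CD8a+PD1-NK1.1- gave 1, TCRab+ILTC1 against TCRb+CD8a+NK1.1- 4 and the TCRab+ILTC1 contrast 6. With only the compared populations, TCRb+CD8a+NK1.1+ against TCRb+CD8a+PD1-NK1.1- gave 4, TCRb+CD8a+PD1+ against TCRb+CD8a+PD1-NK1.1- 1, TCRb+CD8a+NK1.1+ against TCR-NK1.1+ 1, TCRab+ILTC1 against TCRb+CD8a+NK1.1- 0 and TCRgd+ILTC1 against TCRgd+NK1.1- 0. Without marker genes of other cell types TCRb+CD8a+NK1.1+ against TCRb+CD8a+PD1-NK1.1- gave 2. In fits chosen after seeing the data, leaving out both TCRgd+NK1.1- libraries gave 4 for TCRab+ILTC1 against TCRb+CD8a+NK1.1- and 5 for the TCRab+ILTC1 contrast, and leaving out the 3 libraries of the first set highest in epithelial markers gave 5 for TCRb+CD8a+NK1.1+ against TCRb+CD8a+PD1-NK1.1- and 2 for TCRb+CD8a+PD1+ against TCRb+CD8a+PD1-NK1.1-. The share of all genes called under each alternative is not given, so these counts cannot be set against it. The cause of these changes was not tested.

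Leaving out 1 library at a time gave 2 to 3 called members for TCRb+CD8a+NK1.1+ against TCRb+CD8a+PD1+, 0 to 1 for TCRb+CD8a+NK1.1+ against TCRb+CD8a+PD1-NK1.1-, 0 to 1 for TCRb+CD8a-NK1.1+ against TCR-NK1.1+, 2 to 3 for ILC1l against cNK, 0 to 4 for TCRab+ILTC1 against TCRb+CD8a+NK1.1-, 0 to 2 for TCRgd+ILTC1 against TCRgd+NK1.1-, 4 to 7 for the mean of 3 differences, 0 to 3 and 0 to 6 for the TCRab+ILTC1 and TCRgd+ILTC1 contrasts with ILC1l, 0 to 2 for their contrast with each other, 4 to 7 among 5 and 5 to 9 among 6 populations. The other 6 comparisons, with 0 called, gave 0 in each such fit. Scaling by DESeq2 size factors moved the median of all genes by up to 0.133 on the log2 scale and RLE factors by up to 0.132, and changes are read relative to it. On CPM without TMM the order of populations changed for 3 genes, with 2 populations moved for Itgal, 4 for Itgb1 and 2 for Itgb2. With 2 libraries per population, a gene with few reads, such as Itgam or Itga2 in TCRb+CD8a+PD1+ cells, has a level set by a handful of counts, and a difference that missed the threshold is not shown to be absent.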

Other observations

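Some genes known to work beside integrins in holding lymphocytes in tissue changed in the same comparisons. Cxcr6, a chemokine receptor of resident cells, was 968 and 1405 CPM in ILC1l cells against 12.4 and 26.8 CPM in cNK cells (5.92 ± 0.42, adjusted p = 0.000543). S1pr1, the receptor that guides exit from tissue, was 2.28 and 4.33 CPM in ILC1l cells against 70.3 and 64.7 CPM in cNK cells (-4.35 ± 0.58, adjusted p = 0.00729). The libraries did not overlap in either gene. Cxcr6 was not higher in every such comparison. Its means were 2184 CPM in TCRab+ILTC1 against 2371 CPM in TCRb+CD8a+NK1.1- cells, and 2078 CPM in TCRgd+ILTC1 against 2938 CPM in TCRgd+NK1.1- cells. They were 1802 CPM in TCRb+CD8a+NK1.1+ against 3310 CPM in TCRb+CD8a+PD1+ cells. Prdm1, another gene of this list, had means of 13.4 CPM in ILC1l and 104 CPM in cNK cells. They were 21.0 CPM in TCRb+CD8a+NK1.1+ and 67.4 CPM in TCRb+CD8a+PD1+ cells. Means of Cd69, also on the list, were 350 CPM in ILC1l and 344 CPM in cNK cells. Those in TCRb+CD8a+NK1.1+ and TCRb+CD8a+PD1+ cells were 748 and 815 CPM. Neither gene was called in these comparisons. Cd69 was called as higher in TCRgd+ILTC1 than in TCRgd+NK1.1- cells (1.05 ± 0.20, adjusted p = 0.0356). In TCRb+CD8a+NK1.1+ against TCRb+CD8a+PD1+ cells 1 rose and 4 fell of 20 such genes, against 1.09% and 1.02% of all genes. The gene that rose was Zfp683, which encodes the residency factor Hobit, at 29.9 and 32.1 CPM in TCRb+CD8a+NK1.1+ cells against 6.09 and 4.54 CPM in TCRb+CD8a+PD1+ cells (2.54 ± 0.44, adjusted p = 0.0145). Those that fell were Il7r (-5.83 ± 0.57, adjusted p = 0.000885), Ccr7 (-5.61 ± 0.73, adjusted p = 0.00417), Eomes (-3.95 ± 0.36, adjusted p = 0.00074) and S1pr1 (-2.90 ± 0.48, adjusted p = 0.0124), the last named here for completeness after its value was seen.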
